A study of Mus musculus with 278 samples.

Results

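Transcripts of 2 genes, Cd55 and Cd14, were followed cell by cell in the mouse mammary epithelium. They were chosen by name, as genes whose surface proteins are used as markers of mammary progenitor cells, from the 25135 genes kept in the count tables. The series holds 278 single cells from FVB/NJ females, with no treatment in any group. Cells were captured and reverse transcribed on the Fluidigm C1 system, and each library is 1 cell. Adult glands, from animals aged 10 weeks, gave a luminal group (Lin-CD29loCD24+) and a basal group (Lin-CD29hiCD24+), where Lin- is the gate that removes blood and endothelial cells. Pregnant glands, taken at mid-pregnancy, gave total epithelium, in which luminal and basal cells were not separated. Stage and sort therefore cannot be told apart between the pregnancy cells and either adult group. The labels name no animal, so each group counts as 1 sample and no test between groups or cells was possible. All intervals below are exact 95% intervals, and cover counting error only, since the reads carry no molecular identifiers.

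CD55, also called decay accelerating factor, is a complement regulator held on the outer membrane by a glycosylphosphatidylinositol (GPI) anchor. It shortens the life of the convertases that would otherwise deposit complement on the cell. CD14 is a GPI-anchored co-receptor that hands bacterial lipopolysaccharide (LPS) to TLR4 and its partner MD-2, the product of Ly96, and the signal runs on to the transcription factor NF-kB. Both proteins serve as surface markers in sorting luminal progenitors, the luminal cells that form colonies and express Kit and Elf5, as against mature luminal cells, which carry the oestrogen receptor.

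Cd55 (Entrez GeneID 13136) lies on the minus strand at chr1:130429798-130465009 of GRCm38, and has a near copy beside it, Cd55b (GeneID 13137), at chr1:130388526-130423097. Reads from the stretches that both share cannot be placed by sequence alone, so these stretches bear on every Cd55 value. In GENCODE transcripts of the same build, 7 of the 10 coding exons had equal length in both genes. Over those 924 bases, 884 were the same (95.7%), and the longest shared run was 186 bases. The fourth coding exon (100 bases, chr1:130458087-130458186 in Cd55 and chr1:130418108-130418207 in Cd55b) was identical, and is shown once in lower case. It runs 5' to 3' along the transcript, and shows a stretch where neither gene can be told from the other.
Cd55 and Cd55b, coding exon 4: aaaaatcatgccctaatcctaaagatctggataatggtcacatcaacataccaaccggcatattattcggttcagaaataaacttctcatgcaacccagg
A read inside this exon fits both genes. In the adult luminal cells Cd55b received 62 reads in 12 cells, all of which also had Cd55 reads, which came to 1.43% of the Cd55 reads. In the pregnancy cells it received 22 reads in 10 cells, 9 of them with Cd55 reads (0.738%). How reads that fit both genes were handled is not given in the sources used here, so the Cd55 counts are uncertain to that extent.

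Cells were used when 50000 or more read pairs ("reads" below) fell on kept genes. This left 84 of 112 adult basal cells, with adult basal cell 19 left out for its immune markers, 41 of 43 adult luminal cells and 96 of 123 pregnancy cells. Their reads ranged from 67170 to 1290736 in the basal, from 173150 to 1006261 in the luminal and from 53966 to 790397 in the pregnancy group. A gene was called detected in a cell with 1 or more reads after the cell had been thinned at random to 50000 reads, which puts all cells at 1 depth. By 15 basal and 15 pan-luminal markers, all 84 basal cells detected more basal than pan-luminal markers, here called basal-marked. In the luminal group 40 cells were luminal-marked, and 1 (cell 35) was basal-marked, with 14 basal and 10 pan-luminal markers and no read of either gene. The pregnancy cells were 30 luminal-marked, 64 basal-marked and 2 with equal counts, and 12 of the 96 lay within 2 markers of equal counts.

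Cd55 was found in the luminal and pregnancy cells and in no adult basal cell. It was detected in 0 of 84 basal cells, where the exact interval ends at 4.3% (3 cells of 84 would make 3.57%), and none had a read at full depth either. In the luminal group 21 of 41 cells detected it (51.2%, interval 35.1 to 67.1), and in the pregnancy group 41 of 96 (42.7%, interval 32.7 to 53.2). Averaged over all possible draws of 50000 reads, the expected numbers were 21.2 and 41.5 cells. The luminal and pregnancy intervals overlap, so the shares are not ordered beyond counting error.

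Cells with Cd55 reads held more of it in the luminal than in the pregnancy group. Full-depth levels are over the 24 luminal and 50 pregnancy cells with any read, some of them not detected after thinning. In these luminal cells the level ran from 2.78 to 976 CPM (counts scaled to 1000000 reads of the cell) with a median of 270 CPM. In these pregnancy cells it ran from 2.73 to 1360.2 CPM with a median of 43.6 CPM. The thinned cells show the same contrast, since 17 of the 21 luminal cells had 5 or more reads, against 15 of the 41 pregnancy cells. The remaining 26 pregnancy cells rest on 1 to 4 reads. Over the whole groups, zeros included, the median was 20.3 CPM in luminal and 6.75 CPM in pregnancy cells, and the lowest value was 0 CPM in each.

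Summed over cells, Cd55 stood at 175 CPM (interval 170 to 180) in the luminal group, 129 CPM (124 to 133) in pregnancy and 0 CPM in the basal group, where 3 reads would give 0.0852 CPM. Much of each sum came from few cells. Luminal cell 11, which also detected 4 of 6 fibroblast markers, held 18.1% of the luminal Cd55 reads. Pregnancy cell 99 held 30.1% of the pregnancy ones. Without these cells the sums were 148 and 92.5 CPM. Some cells detected 3 or more myeloid, leukocyte, fibroblast or endothelial markers. Without all such cells the sums were 138 CPM (interval 133 to 143) in luminal and 144 CPM (139 to 150) in pregnancy. The order of the luminal and pregnancy sums also turned with the scaling, since trimmed mean of M values (TMM) factors gave 145 CPM in luminal and 154 CPM in pregnancy.

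Cd14 (GeneID 12475, chromosome 18) followed another order, with its highest share and level in pregnancy. In the basal group 1 of 84 cells detected it (cell 37, with 77 of the 78 basal reads). It was detected in 19 of 41 luminal cells (46.3%, interval 30.7 to 62.6) and in 62 of 96 pregnancy cells (64.6%, interval 54.2 to 74.1). Over all draws 17.9 and 63.3 cells were expected. The luminal and pregnancy intervals overlap here too, whereas both lie above the basal interval of 0.0301 to 6.46%.

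The summed Cd14 level was 2.22 CPM (interval 1.75 to 2.77) in basal, 178 CPM (173 to 184) in the luminal group and 995 CPM (983 to 1008.2) in pregnancy. The 23 luminal cells with any read at full depth ran from 2.06 to 2818.3 CPM with a median of 306 CPM. The 68 such pregnancy cells ran from 6.63 to 14152.0 CPM with a median of 313 CPM. These medians were close, but they are not medians of the 19 and 62 cells that detected Cd14 after thinning. The upper tail held more pregnancy cells. At full depth 2 luminal cells and 20 pregnancy cells were above 1000 CPM. With zeros included, the median cell had 4.89 CPM in the luminal and 92.5 CPM in the pregnancy group. The pregnancy level remained above the luminal level by TMM scaling (1190.0 against 147 CPM) and as a mean of the cells (809 against 252 CPM).

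Cd14 is also a marker of monocytes and macrophages, so myeloid genes were read beside it. In pregnancy, 4 cells (13, 32, 35 and 41) detected 3 or more of 7 myeloid or 6 leukocyte markers. All 4 detected Cd14 and none had a Cd55 read, and cells 13 and 35 alone held 3673 and 1309 Cd14 reads. Without the 4 cells, Cd14 was detected in 58 of 92 cells (63%) at 799 CPM. Of the 62 pregnancy cells with Cd14, 51 detected no myeloid marker. In these 62 cells 7 of 7 myeloid markers had reads and their summed level ran from 0 to 20563.7 CPM, against 3 of 7 and 0 to 392 CPM in the 34 cells without Cd14. In the adult luminal group, none of the 19 cells with Cd14 detected a myeloid marker, and Csf1r, Lyz2, Itgam, Adgre1, Fcgr3 and Tyrobp had 0 reads in them at full depth, the summed level reaching 10.5 CPM.

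**Figure D1:**
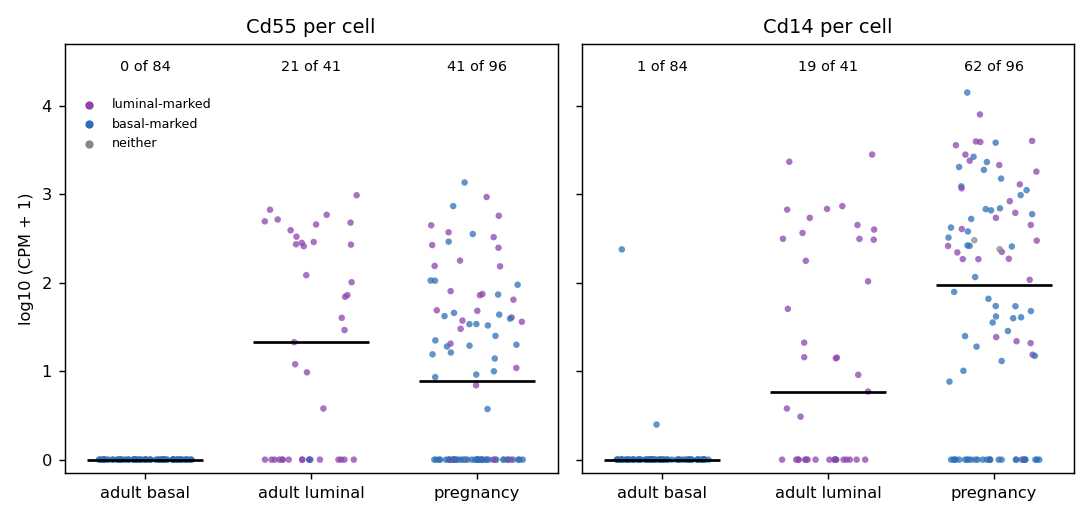
Level of Cd55 and of Cd14 in each cell, as log10(CPM + 1) on the vertical axis, by group on the horizontal axis. Each point is 1 cell coloured by its marked lineage, black bars are medians over all cells of the group, and the numbers above give the cells that detected the gene at 50000 reads. All 84 basal cells sit at 0 for Cd55, and 20 of 96 pregnancy cells lie above 1000 CPM of Cd14, against 2 of 41 luminal cells.

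To compare the genes with each other, counts were divided by the gene length used in the count files (2527 bases for Cd55, 1497 for Cd14), giving RPKM, which is CPM per kilobase. On this scale the summed level of Cd14 was above that of Cd55 in both groups. The summed levels were 119 RPKM for Cd14 and 69.3 RPKM for Cd55 in luminal cells, and 665 and 50.9 RPKM in pregnancy cells. Of the luminal cells with reads of both at full depth, Cd14 had the higher RPKM in 9 and Cd55 in 3. In pregnancy, Cd14 was higher in 36 such cells and Cd55 in 8. The order was the other way in the luminal cells with more mature than progenitor markers (marker lists described below), at 68 RPKM for Cd55 and 52 RPKM for Cd14. Above 40 RPKM there were 15 of 41 luminal cells for Cd55 and 14 for Cd14, and 16 and 50 of 96 pregnancy cells.

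The lists of 15 luminal progenitor and 15 mature luminal markers allowed the name "progenitor marker" to be read against the cells. Within the adult luminal group, Cd14 followed the progenitor list and Cd55 did not. The 18 cells with more progenitor than mature markers included 12 with Cd14 (66.7%, interval 41 to 86.7), and the 22 cells with more mature markers included 6 (27.3%, interval 10.7 to 50.2). Cd55 was in 9 of the 18 (50%, interval 26 to 74) and in 12 of the 22 (54.5%, interval 32.2 to 75.6). The median number of progenitor markers was 9 in cells with Cd14 and 4.5 in cells without it, and was 8 both in cells with and in cells without Cd55. The Cd14 intervals of the 2 subsets overlap between 41 and 50.2%. In this group the progenitor list thus went with Cd14 transcripts in direction, with overlapping intervals, and not with Cd55 transcripts. Part of the study's own evidence on CD55 is of another kind, higher colony formation by luminal cells sorted for the surface protein. The study used transcripts too. It described a cell cluster, more common in puberty, that was enriched for Cd55, some basal genes and the progenitor gene Aldh1a3. It also clustered adult luminal cells by Cd55 and Cd14 transcripts, and called their overlap compatible with that of the proteins. Transcript detection measures neither the protein nor colony formation.

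The summed levels of Cd14 had the same order, at 345 CPM in the 18 cells and 77.8 CPM in the 22. For Cd55 they were 194 and 172 CPM, and luminal cell 11 held 42.6% of the reads in the 18 cells. In pregnancy this split gave little, since 88 of the 96 cells detected more progenitor than mature markers.

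By lineage, both genes were detected more often in luminal-marked than in basal-marked pregnancy cells, but neither was limited to them. Cd55 was in 21 of 30 luminal-marked cells (70%, interval 50.6 to 85.3) and in 20 of 64 basal-marked cells (31.2%, interval 20.2 to 44.1). Cd14 was in 25 of 30 (83.3%, interval 65.3 to 94.4) and in 35 of 64 (54.7%, interval 41.7 to 67.2). Both shares in the basal-marked pregnancy cells lie above the adult basal intervals, which end at 4.3% for Cd55 and 6.46% for Cd14. The parts of stage and sort in this gap cannot be told apart. Basal-marked pregnancy cells also differed from adult basal cells in their markers, and many were mixed. Adult basal cells detected 0 to 5 pan-luminal markers. Basal-marked pregnancy cells with Cd55 included cells 54, 1 and 86, with 11, 10 and 4 pan-luminal and 13, 12 and 15 basal markers. Luminal-marked and basal-marked cells also include cells of other types, such as cell 35, which was luminal-marked by 2 pan-luminal and 0 basal markers and detected 5 myeloid and 6 leukocyte markers. Without cells of 3 or more markers of another type, Cd55 was in 16 of 24 luminal-marked (66.7%) and 16 of 47 basal-marked cells (34%), and Cd14 in 21 of 24 (87.5%) and 25 of 47 (53.2%).

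**Figure D2:**
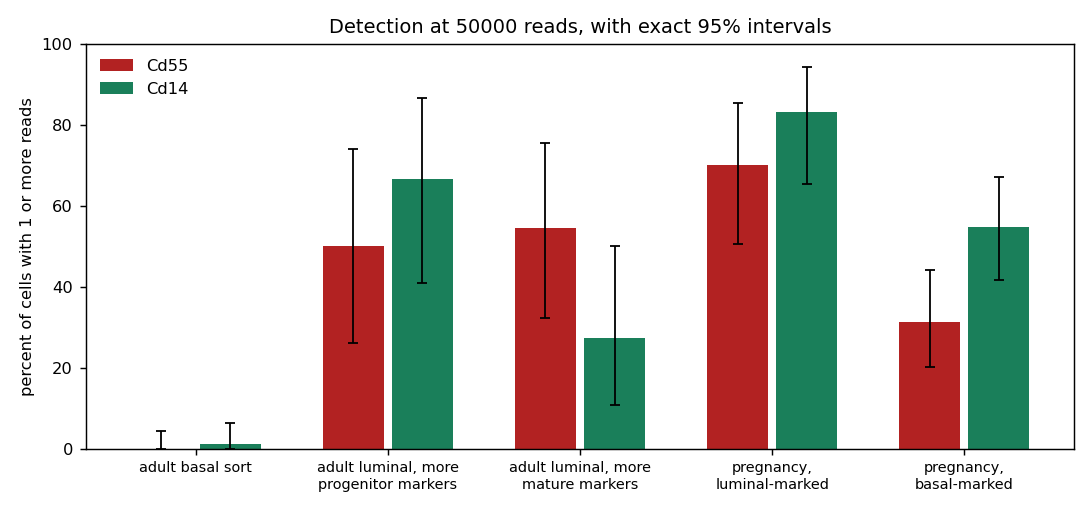
Percent of cells that detected Cd55 and Cd14 (vertical axis, from 0) in adult basal cells, adult luminal cells with more progenitor or more mature markers, and luminal- or basal-marked pregnancy cells. Bars are shares at 50000 reads and whiskers exact 95% intervals. Cd55 bars are alike in the adult luminal subsets (50 and 54.5%) while those of Cd14 are not (66.7 and 27.3%).

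In the adult luminal group, Cd55 and Cd14 were detected together about as often as their separate shares would give. Of 41 cells, 10 detected both (24.4%, interval 12.4 to 40.3), 11 only Cd55, 9 only Cd14 and 11 neither. Independent detection at these shares would give 9.73 cells with both. Cd14 was in 10 of 21 cells with Cd55 (47.6%) and in 9 of 20 without (45%), a difference of 2.62 percentage points (phi 0.03 over 41 cells). Over 3 random draws this difference ran from -7.14 to 2.62 points. Cells with both came from either subset, 6 of them with more progenitor and 4 with more mature markers.

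In pregnancy the 2 genes were found in the same cells more often. Of 96 cells, 33 detected both (34.4%, interval 25 to 44.8), 8 only Cd55, 29 only Cd14 and 26 neither, where independent detection would give 26.5 with both. Cd14 was in 33 of 41 cells with Cd55 (80.5%, interval 65.1 to 91.2) and in 29 of 55 without (52.7%, interval 38.8 to 66.3). The difference of 27.8 points (phi 0.29 over 96 cells) ran from 27.8 to 36.2 points over 3 draws. Within the lineages the excess over the separate shares was small in luminal-marked cells and remained in basal-marked cells. Among luminal-marked cells 18 of 30 had both, against 17.5 from the separate shares, and among basal-marked cells 15 of 64, against 10.9. In basal-marked cells Cd14 was in 15 of 20 with Cd55 (75%, interval 50.9 to 91.3) and in 20 of 44 without (45.5%, interval 30.4 to 61.2). In luminal-marked cells it was in 18 of 21 (85.7%) and in 7 of 9 (77.8%). The difference between adult and pregnancy cells in this respect was not tested.

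Depth moved with these classes in pregnancy, and its part was not tested. The median full depth was 250715 reads in cells with Cd55 and 154091 in cells without, while cells with and without Cd55 detected a median of 3685 and 3070 genes after thinning. For Cd14 the depths were 244476 and 143715 reads, and the genes 3340.5 and 3026.5. By cell titles, which give the pregnancy cells numbers, both were found in 13 of 45 cells up to number 55 (11 from the separate shares) and in 20 of 51 above it (15.5). The levels differed across this split. Cd55 stood at 39.4 CPM up to 55 and at 183 CPM above it, and Cd14 at 700 and 1177.0 CPM, while the detected shares were 42.2 and 43.1% for Cd55 and 57.8 and 70.6% for Cd14.

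**Figure D3:**
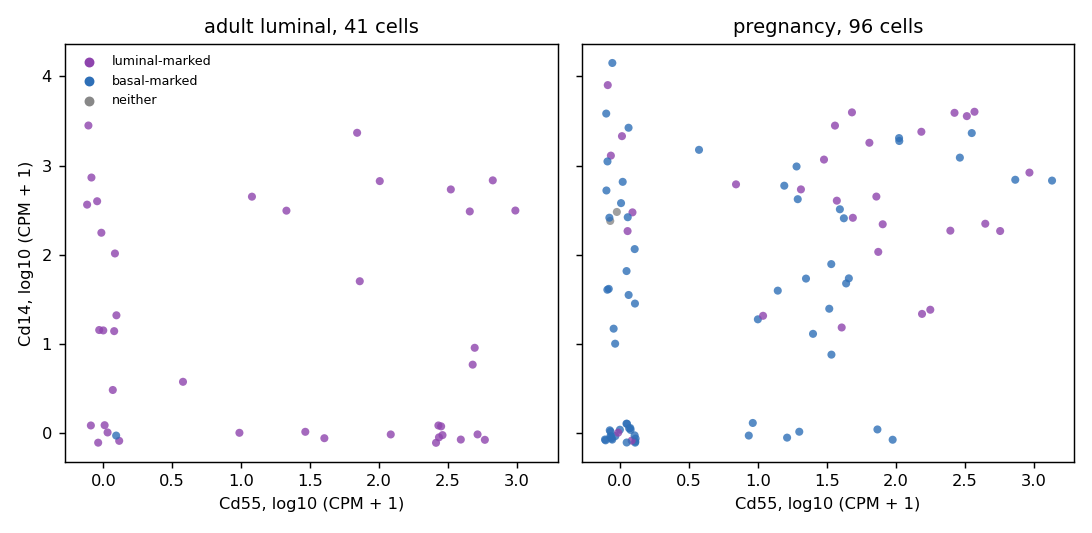
Cd14 against Cd55 in each of 41 adult luminal and 96 pregnancy cells, both as log10(CPM + 1) at full depth, with zeros spread slightly so that the points can be seen. Luminal cells fill all 4 corners, and in pregnancy the cells with Cd55 alone (8 at 50000 reads) are few beside those with Cd14 alone (29).

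Which other genes were found in the same cells was read as the share of cells with a gene among those with Cd55 (or Cd14) minus the share among those without, in percentage points. Genes detected in 15 to 85% of the cells were compared, 6229 in the luminal and 6563 in the pregnancy group, and a gene was counted at 30 points or more in either direction. The genes named first below were those with the highest or lowest phi, so their values are a choice of extremes in 1 draw. Where a range is given it is over 3 random draws of the reads, and the percent of all compared genes past 30 points is the background for every list.

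In adult luminal cells, the progenitor and mature luminal lists held no gene past 30 points with Cd55. Of 6229 genes, 252 (4.05%) were found at least 30 points more often with Cd55 and 48 (0.771%) less often, and the median gene stood at 4.05 points. None of the 14 progenitor genes compared passed 30 points (median 7.02), and none of the 12 mature luminal genes did (median -2.38). Neither list had a gene past 30 points in the other 2 draws. Of 10 pan-luminal genes none passed either, and 8 lay below 0 (median -8.45, with -9.81 and -5.95 in the other draws). The LPS receptor pathway list had 1 of 13 genes past 30 points, Myd88 (9 of 21 cells with Cd55, 2 of 20 without), the adaptor below the toll-like receptors. Cd59a, which blocks the last step of complement attack and is GPI-anchored like CD55, was found less often with Cd55 (4 of 21 against 10 of 20, -31 points). Of 10 NF-kB target genes Tnfaip2 passed (11 and 3 cells), and of 7 GPI-anchored genes Ly6c1 did (12 and 5). None of Myd88, Cd59a, Tnfaip2 and Ly6c1 passed 30 points in all 3 draws. Of 5 milk genes 0 passed, though all 5 lay above 0 (median 22.1, with 20.8 and 16.9 in the other draws), and without cells of other types Csn1s1 and Csn2 passed (median 27.6). Milk genes took a median of 0.605% of the reads in cells with Cd55 and 0.0552% in cells without.

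The gene of highest phi with Cd55 in luminal cells was Cdc73. Cdc73, a subunit of the PAF1 complex that travels with RNA polymerase II, was in 14 of 21 cells with Cd55 and in 1 of 20 without (61.7 points, 47.4 to 61.7 over 3 draws). Hs2st1, a heparan sulphate sulphotransferase, and Ttc27 were each in 10 of 21 and 0 of 20 cells. Scara5, a ferritin receptor also known from stromal cells, was in 9 of 21 and 0 of 20. The transcription factor Sp1 was in all 21 and in 11 of 20, and Zfp367 in 15 and 4. These 6 genes, but not Ywhag and Ensa, which complete the 8, were past 30 points in all 3 draws. Other settings moved 4 of them under it. Ttc27 fell to 24.8 and Sp1 to 19.4 points with no thinning, Hs2st1 to 13.5 and Ttc27 to 9.31 with 5 or more reads required, and Scara5 to 25 without cells of other types.

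At the other end, Bhlhe41, a circadian repressor, was in 0 of 21 cells with Cd55 and 8 of 20 without. Cirbp, a cold-inducible RNA-binding protein, was in 8 and 17 cells. Gclm, a subunit of the enzyme that starts glutathione synthesis, was in 2 and 10, and Avl9 in 3 and 11. Gclm and Avl9 were past 30 points in all 3 draws, Bhlhe41 and Cirbp were not. With no thinning Gclm stood at -18.9 and Avl9 at -25.5 points, and with 5 or more reads required at -25 and -13.2. A few luminal cells held fibroblast markers. Of the 21 cells with Cd55, 5 detected 3 or more of the 6 fibroblast markers, against 1 of the 20 without, and the summed level of these markers ran from 0 to 30574.3 CPM and from 0 to 3598.9 CPM. The medians were 0 CPM with Cd55 and 2.03 CPM without. Lum and Pdgfra were at 0 in the cells without Cd55. The part of these cells was not tested, but without cells of 3 or more markers of another type Cd55 was still detected in 16 of 35 luminal cells (45.7%).

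Detection of Cd14 in adult luminal cells went with progenitor and milk genes. Of 6229 genes, 70 (1.12%) were found at least 30 points more often with Cd14 and 162 (2.6%) less often, and the median gene stood at -2.87 points. This order turned with the cells kept. The study's minimums (100000 reads and 1500 genes) leave out luminal cells 15 and 17, both with Cd14. They gave 187 of 6761 genes more and 124 less often (median -0.267). Without cells of other types it was 87 and 325 of 6156 genes (median -5.59). In the main values all 14 progenitor genes compared lay above 0 (median 17.9), and 3 passed 30 points. These were Trf, which encodes the iron carrier transferrin (17 of 19 cells with Cd14, 11 of 22 without), Wfdc18, a whey acidic protein relative (17 and 10), and Lcn2, which binds bacterial siderophores and is an NF-kB target (17 and 12). All 3 were past 30 points in every draw, and the other draws placed 6 and 5 of 13 progenitor genes there.

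Milk genes were also found more often in these cells, and most mature luminal genes less often. Milk genes took a median of 1.2% of the reads in cells with Cd14 and 0.00569% in cells without. Csn1s1 was in 14 of 19 cells with Cd14 and 8 of 22 without, and Csn3 in 15 and 10, both caseins and both past 30 points in all 3 draws, out of 5 milk genes compared. Of 12 mature luminal genes 11 lay below 0 (median -13.6). Esr1, the oestrogen receptor, was in 8 and 16 cells, Tph1, which starts serotonin synthesis, in 6 and 14, and Plac8 in 9 and 19, though none of these 3 was past 30 points in every draw. Of the LPS receptor pathway 0 of 13 genes passed 30 points either way (median -0.957), and Tlr4 was in 6 and 5 cells. Of 10 NF-kB target genes Lcn2 alone passed (median 22), and of 7 GPI-anchored genes none did. C3, the central complement protein, was in 12 and 7 cells (31.3 points, 26.1 to 31.3 over draws).

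The luminal genes of highest phi with Cd14 were less steady across draws than those with Cd55. Cp, the ferroxidase ceruloplasmin, was in 17 of 19 cells with Cd14 and 9 of 22 without (48.6 points, 34.2 to 48.6), and Cp and Wfdc18 were the only 2 of the 8 past 30 points in all 3 draws, but with no thinning they stood at 15.9 and 11.6 points. Osgep (11 and 2 cells), Peak1 (9 and 1), Lemd2 (7 and 0), Vegfb (7 and 0), Gm4199 (10 and 2) and the chaperone Hsph1 (12 and 4) fell under 30 points in at least 1 draw. Among the lowest, Ano9 was in 0 of 19 and 10 of 22 cells and was past 30 points in every draw, but stood at -10.7 points with 5 or more reads required. Calm3, which encodes calmodulin, showed how far a draw can move a value, since its difference ran from -64.6 to -10.3 points. Pam (6 and 20 cells) and Dcaf11 (1 and 12) varied in a like way.

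Over pregnancy cells of all lineages together, detection of Cd55 went with luminal and progenitor genes and against basal ones. The pan-luminal and basal lists also define the marked lineages, and values within lineage are given further below. Of 6563 genes, 151 (2.3%) were found at least 30 points more often with Cd55 and 16 (0.244%) less often, and the median gene stood at 6.52 points. Of 9 progenitor genes 7 passed 30 points (median 36.1), with 3 and 6 in the other draws. Muc15, a membrane mucin, was in 36 of 41 cells with Cd55 and 26 of 55 without, and Btn1a1, a protein of the milk fat globule, in 34 and 23. Kit, the stem cell factor receptor, was in 20 and 7, and Elf5, the transcription factor of the alveolar fate, in 28 and 16. Muc15, Btn1a1 and Aldoc (32 and 23) held in all 3 draws, Kit, Elf5, Kcnn4 and Plet1 did not.

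Of 13 pan-luminal genes 6 passed 30 points with Cd55 (median 29.3, with 5 and 3 in the other draws), among them the tight junction gene Cldn7 (31 of 41 against 20 of 55) and Ehf (34 and 25). All 14 basal genes lay below 0 (median -24.2), and Krt5, the basal keratin, was in 15 of 41 cells with Cd55 and 42 of 55 without (-39.8 points, -39.8 to -31.1). Of the 4 mature luminal genes compared, Prlr, the prolactin receptor (35 and 22 cells), and Ly6a, which encodes the surface protein Sca-1 (26 and 12), passed 30 points in all draws. Lbp, the LPS-binding protein, was in 27 and 18 cells and Tlr4 in 20 and 10, and of these Lbp alone held in all draws. Of 13 NF-kB target genes 2 passed with Cd55 (Csf3 and Lbp, list median 19.7), of 4 milk genes none did, and of 7 GPI-anchored genes Ly6a and Folr1 did.

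In pregnancy the gene of highest phi with Cd55 was Spint1. Spint1, a membrane protease inhibitor, was in 27 of 41 cells with Cd55 and in 8 of 55 without (51.3 points, 32.8 to 51.3 over draws). Dab2, an endocytic adaptor, was in 39 and 27, Slc28a3, a nucleoside transporter, in 34 and 20, Cldn1, a tight junction claudin, in 24 and 8, and Mal2, a transcytosis protein, in 38 and 27. These and Prlr were past 30 points in all 3 draws. In luminal-marked cells Dab2 stood at 28.6, Mal2 at 11.1 and Prlr at 12.7 points, and with 5 or more reads required Slc28a3 stood at 25.9, Cldn1 at 19.8 and Prlr at 23.2. Mal2 stood at 25.4 points above title number 55, while Spint1 was past 30 points under each alternative run. Mrps28 (27 and 11) and Galnt3 (25 and 9) were not. The lowest were Slc26a6 (12 and 39), Krt5, Mylk, the myosin light chain kinase of myoepithelial cells (24 and 50), and Fgfr2 (7 and 29), of which Krt5 alone held in all draws. Krt5 stood at -26.1 points with no thinning, at -22.5 with 5 or more reads required and at 0 in luminal-marked cells. None of the 8 genes of highest phi with Cd55 in luminal cells was past 30 points in pregnancy, where their differences ran from 2.53 (Ttc27) to 29.5 (Ywhag).

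In pregnancy cells, detection of Cd14 went with NF-kB target, progenitor and milk genes. Of 6563 genes, 145 (2.21%) were found at least 30 points more often with Cd14 and 30 (0.457%) less often, and the median gene stood at 2.37 points. Of 13 NF-kB target genes 9 passed 30 points (median 36.1), and 11 of 15 and 9 of 15 did so in the other draws. Cxcl2, a neutrophil chemokine, was in 57 of 62 cells with Cd14 and 13 of 34 without (53.7 points, 51.6 to 60.9). Saa1 and Saa2, acute phase serum amyloid A genes, were in 31 against 3 and 28 against 2 cells. Their levels were 1179.7 and 1.59 CPM for Saa1 and 626 and 3.01 CPM for Saa2. Ltf, the iron-binding milk protein lactoferrin, was in 44 and 10 cells, Tnfaip2 in 43 and 12, Csf3, a granulocyte growth factor, in 37 and 8, and Birc3, an inhibitor of apoptosis, in 45 and 13. Of the 9 genes Tnfaip3 (37 and 6) alone fell under 30 points in a draw.

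Fewer genes passed upstream of NF-kB. Of 13 LPS receptor pathway genes, Lbp alone passed 30 points with Cd14 (39 of 62 against 6 of 34 cells, 45.3 points), and Lbp is also in the target list. Tlr4 was in 23 and 7 cells (16.5 points), Ly96 in 24 and 6 (21.1 points) and Myd88 in 30 and 11 (16 points). Of the complement components C3 was in 52 and 13 cells (45.6 points) and Cfb, its partner in the alternative pathway, in 28 and 4 (33.4 points), and of 4 complement regulators compared none passed 30 points. Folr1, a GPI-anchored folate receptor, was in 44 and 4 cells (59.2 points), while the median of the 7 GPI-anchored genes was 0.664 points.

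Progenitor and milk genes stood as high as the NF-kB list with Cd14. Of 9 progenitor genes 7 passed 30 points (median 36.3), with 7 and 8 in the other draws. Btn1a1 was in 49 of 62 cells with Cd14 and 8 of 34 without, Muc15 in 52 and 10, and Plet1, a GPI-anchored surface protein, in 56 and 14. All 4 milk genes compared passed 30 points (Csn1s2b, Wap, Lalba and Glycam1), Wap in 51 and 13 cells. Milk genes took a median of 18.4% of the reads in cells with Cd14 and 0.397% in cells without, and of 17.8 and 0.955% in cells with and without Cd55. The part of this share in the detection of other genes was not tested.

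All 8 genes of highest phi with Cd14 in pregnancy were past 30 points in every draw. Ogfrl1 was in 54 of 62 cells with Cd14 and 8 of 34 without (63.6 points, 63.6 to 73), and stood at 36.6 points in the luminal cells too. Fabp3, a fatty acid carrier, was in 54 and 10 and Lao1, an amino acid oxidase found in milk, in 43 and 5, and the others were Cxcl2, Folr1, Muc15, Btn1a1 and Plet1. In luminal-marked cells, with only 5 lacking Cd14, Fabp3 stood at 28, Muc15 at 12 and Plet1 at -8 points, and Lao1 stood at 28.9 up to title number 55. Ogfrl1, Cxcl2, Folr1 and Btn1a1 were past 30 points under each alternative run. Among the lowest 4, Cdh13, a GPI-anchored cadherin, and Bgn, the matrix proteoglycan biglycan, were each in 15 of 62 cells with Cd14 and 23 of 34 without. Serpinh1, a collagen chaperone, was in 17 and 24, and Enc1 in 14 and 22. In luminal-marked cells Cdh13 and Bgn each stood at -16 and Enc1 at -24 points. Oxtr, the oxytocin receptor of myoepithelial cells, was in 22 and 25 and was the 1 basal gene of 14 past -30 points. Of 3 fibroblast genes compared none passed -30 points, and all 3 lay below 0. The summed level of the 6 fibroblast markers had a median of 9.41 CPM in cells with Cd14 (0 to 39792.2) and 227 CPM in cells without (0 to 29527.2), and 3 or more were detected in 5 of 62 and 7 of 34 cells. Their part was not tested.

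**Figure D4:**
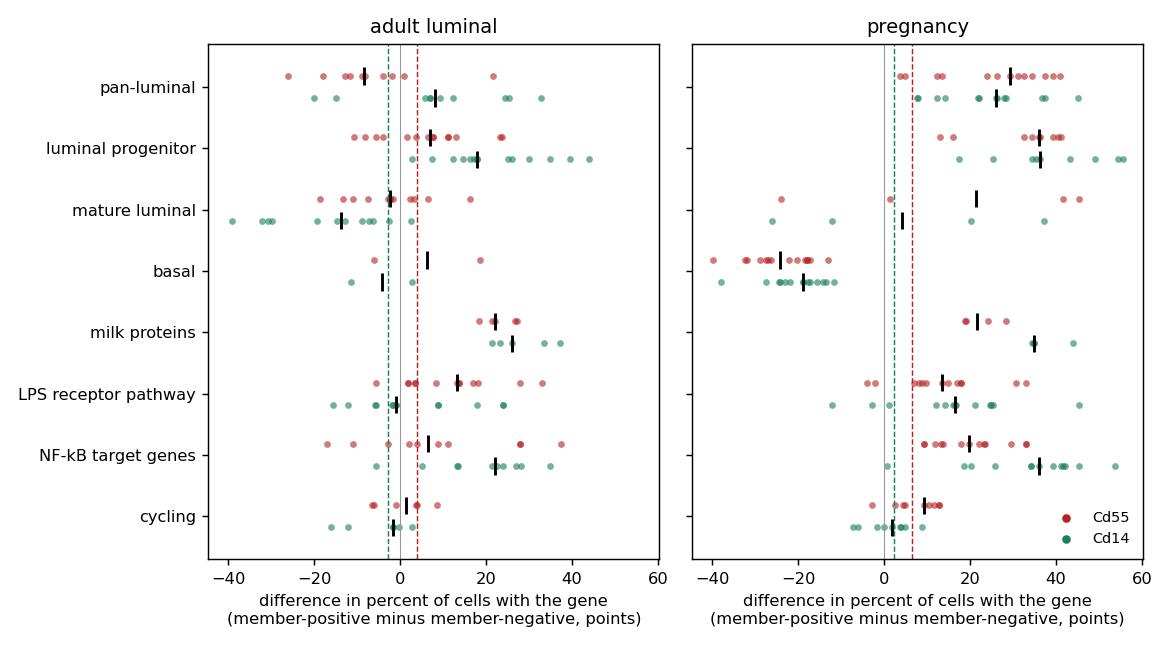
Difference in detection, in percentage points, between cells with and without Cd55 (red) or Cd14 (green), for every compared gene of the main lists, in adult luminal and pregnancy cells. Dots are genes, black ticks list medians and dashed lines the median of all genes compared. In pregnancy the NF-kB target genes centre on 36.1 points for Cd14 and on 19.7 points for Cd55, and in luminal cells the progenitor genes centre on 17.9 points for Cd14 and 7.02 for Cd55.

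Of the 62 pregnancy cells with Cd14, 25 were luminal-marked, against 5 of the 34 without, so the lists were read again within lineage. In basal-marked cells alone (35 with and 29 without Cd14), 9 of 13 NF-kB target genes passed 30 points (median 35.3) and 5 of 8 progenitor genes did (median 38.2), beside 173 of all 6462 genes. In luminal-marked cells, where 25 had Cd14 and 5 did not, 6 of 14 NF-kB targets and 2 of 8 progenitor genes passed, beside 399 of all 6410 genes, with 624 less often. Up to title number 55 it was 6 of 11 and 6 of 9, beside 548 of 7447 genes. Above it, 9 of 13 and 8 of 9 passed, beside 253 of 5747. Without cells of other types it was 9 of 14 and 8 of 9, beside 253 of 6460.

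For Cd55, 6 of 8 progenitor genes passed in basal-marked cells (20 with and 44 without), beside 448 of all 6462 genes, and 2 of 8 in luminal-marked cells (21 with and 9 without), beside 515 of 6410. It was 7 of 9 up to title number 55, beside 670 of 7447, 2 of 9 above it, beside 228 of 5747, and 3 of 9 without cells of other types, beside 183 of 6460. Of the 41 pregnancy cells with Cd55, 21 were luminal-marked, against 9 of the 55 without. In basal-marked cells 4 of 10 pan-luminal genes passed with Cd55 (median 25.7) and 0 of 4 basal genes passed either way (median -1.59). In luminal-marked cells it was 2 of 10 (median 7.94) and 0 of 7 (median -1.59). Cells with 3 or more markers of another type were 14 of the 62 with Cd14 and 9 of the 34 without, and 9 of the 41 with Cd55 and 14 of the 55 without.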

How the data were processed

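Cells were captured on the Fluidigm C1, and Nextera XT libraries were read on an Illumina NextSeq. For each cell, the deposited files give unnormalised read pair counts by Entrez GeneID, which the authors made by mapping to mm10 and assigning to genes (the submitters' processing notes name Subread 1.4.6 and featureCounts). A table of the whole series was not used here. Symbols came from a GRCm38.p6 gene table, and 15 mitochondrial genes, 125 ribosomal genes and 1904 IDs without a symbol (9.54, 1.72 and 1.2% of reads) were removed. Groups were taken from the labels, and cell numbers are those of the cell titles.

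Cells with 50000 or more reads were thinned without replacement to 50000 reads (Python 3.11.15, numpy 2.4.6, pandas 2.3.3). Levels used all reads. Intervals were Clopper-Pearson for shares and exact Poisson for summed counts (scipy 1.17.1), for a share of 0 the limit that 3 cells would set is given, and TMM factors came from edgeR 4.0.16 in R 4.3.3. Figures were drawn with matplotlib 3.10.9. No test was run, since each group is 1 sample. The scripts were tested on simulated data. The members, gene lists and splits of cells were chosen with earlier results of these data known. Named genes were the 8 of highest and 4 of lowest phi for each gene and group, among genes in 15 to 85% of cells, besides listed genes at 30 points or more. Genes of the complement and LPS lists are also given with their values where they were under 30 points, and were then chosen after their values were seen.

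A first run, with another sampling routine and 25125 kept genes (ribosomal kinases removed too), was replaced after its results were seen. It gave Cd55 in 49% and Cd14 in 68.8% of pregnancy cells. No fault was shown in its routine, and its draw is kept as 1 of the 3 draws in the text. Alternatives changed the depth, the read minimum, the scaling, the filters, the draw and the cells.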

Additional observations from a re-analysis of the deposited data

Results flagged for a closer look

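Adult basal cell 19, left out of all basal values, held Cd14 at 35178.4 CPM (18100 of 514520 reads) and no Cd55 read, and was flagged as a signal outside the compared cells. It detected 6 of 7 myeloid and 6 of 6 leukocyte markers, 7 of the basal markers and 0 of the pan-luminal markers. The other 84 basal cells together held 78 Cd14 reads. The 27 pregnancy cells under 50000 reads held 14 Cd55 reads in 5 cells and 101 Cd14 reads in 9 cells, with both in 3 cells, and were flagged because they enter no comparison. In the 27 shallow basal cells there was 1 Cd14 read and no Cd55 read.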

How the results depend on the processing

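The values limit what can be said in 3 ways. Groups are 1 sample each, so no animal-to-animal spread is known. A cell at 50000 reads misses low transcripts, and 26 of the 41 pregnancy cells with Cd55 rested on 1 to 4 reads. Counts of genes past 30 points moved with the draw, so single genes under a steady range carry little. No paired analysis was possible because no result comes from a test, and cell numbers pair no cells. No cause of the changes below was tested. For the 23 main values, 119 alternative values stayed close to them and 68 moved. A share or level counted as moved when it left the exact interval of the value in the text, a count of genes when it changed by over 1.5 times. Adult shares stayed inside their wide intervals, but ranged from 36.6 (RPKM above 40) to 58.5% (no thinning) for luminal Cd55, from 31.7 (5 or more reads) to 56.1% (no thinning) for luminal Cd14 and from 1.19 to 2.38% for basal Cd14.

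With 5 or more reads required, pregnancy shares were 15.6% for Cd55, 49% for Cd14 and 14.6% for both. Counts of genes were 85 more often with Cd55 in luminal cells, 58 more and 109 less often with Cd55 in pregnancy, and 67 more and 113 less often with Cd14 in pregnancy. Lemd2 and Vegfb turned to -3.02 and -3.57 points with Cd14 in luminal cells. With RPKM above 40, the pregnancy shares were 16.7, 52.1 and 14.6%, and both genes were in 9.76% of luminal cells. At 100000 reads, pregnancy Cd55 was in 56.4% and both in 48.7%. With no thinning, both were in 45.8% of pregnancy cells, and the counts were 259 more and 7 less often with Cd55 and 553 more often with Cd14 in pregnancy, and 249 less often with Cd14 in luminal cells.

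For levels, TMM gave 145 CPM (luminal) and 154 CPM (pregnancy) for Cd55 and 147 and 1190.0 CPM for Cd14. A mean of the cells gave 164 and 80.8 CPM for Cd55 and 2.84 (basal), 252 and 809 CPM for Cd14. Leaving out milk genes gave 167 and 1289.5 CPM in pregnancy. Without the top cell the levels were 148 and 92.5 CPM for Cd55 and 0.0287, 147 and 846 CPM for Cd14. By title number up to and above 55, Cd55 was at 39.4 and 183 CPM and Cd14 at 700 and 1177.0 CPM in pregnancy.

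The counts of genes in pregnancy by that split were 670 and 228 more often and 77 and 51 less often with Cd55, and 548 and 253 more often and 50 and 233 less often with Cd14. At 40 points they were 51 more and 5 less often with Cd55 and 7 and 31 with Cd14 in luminal cells, and 27 and 1 with Cd55 and 42 and 4 with Cd14 in pregnancy. Another draw gave 75 more often with Cd55 in pregnancy. In luminal-marked pregnancy cells they were 515 and 144 with Cd55 and 399 and 624 with Cd14, and Plet1 turned to -8 points with Cd14. The rest were chosen after seeing the data. Without cells of other types, they were 422 more often with Cd55 and 325 less often with Cd14 in luminal cells, and 31 less often with Cd55 and 253 more and 127 less often with Cd14 in pregnancy. The study's minimums gave 102 less often with Cd55 and 187 more often with Cd14 in luminal cells. The first run, described above, gave 93 less often with Cd14 in pregnancy.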
